A study of Mus musculus with 7 samples.

Results

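Microglia of the ventricular-subventricular zone (V-SVZ) were picked out of a 10x Genomics single-cell RNA-sequencing (scRNA-seq) series by a gate on raw unique molecular identifiers (UMIs), the tags that count single RNA molecules. A kept cell (500 to 7000 genes detected and at most 10% mitochondrial UMIs) was called microglia when Csf1r, Cx3cr1, P2ry12 and Tmem119 summed to 4 or more UMIs, C1qa had 1 or more, Dcx had at most 1, and neither Mog nor Cldn5 had any. The gate took 721 of 43346 kept cells, or 1.66%. These gate genes chose the cells, so their levels are given as a description only.

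The V-SVZ lines the lateral ventricles and was dissected from brains of 31- to 33-day-old mice, several mice being pooled per library. The 3 control libraries have the genotype Prdmflox/flox, as the labels spell it, without Cre. The 3 Prdm16 cKO libraries are hGFAP-Cre+/-; Prdm16flox/flox, and the single Prdm16-Vcam1 DKO library is hGFAP-Cre+/-; Prdm16flox/flox; Vcam1flox/flox. All groups therefore carry the floxed Prdm16 allele, and the Cre acts in radial glia and the cells that descend from them.

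Microglia are the resident macrophages of the brain. They descend from yolk-sac progenitors rather than from radial glia, depend on signals through the CSF1 receptor and on TGF-beta, and survey the tissue with processes that respond to purines through receptors such as P2RY12. In neurogenic zones they take up dying cells and lie close to the dividing progenitors, and they can pass into dividing, lipid-handling, interferon or cytokine-producing states.

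Promoter windows are shown first because the cell identity and the one gene that passed the test below can both be placed beside known motifs. RefSeq promoters (GRCm38.p6, 250 bases before to 50 after each annotated start) were searched on both strands for GAGGAAGT, a core of the sites bound by the myeloid factor PU.1. The motif was present for 997 of 27025 genes (3.69%) and for 4 of the 16 matched genes (25%) among the 20 genes most enriched in microglia. Those 4 are shown with the motif, in the strand found, in capitals.
C1qc: gacggcagacACTTCCTCattttggcac
Ctss: atgaaagttcACTTCCTCattgtggatg
Pld4: tcagaacaaaGAGGAAGTgaatggaagg
Vav1: agtcacagaaGAGGAAGTggtgttgtag

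C1qc (chr4:136893092-136893119, minus strand) encodes a chain of complement C1q, and the printed match began at -195 from the annotated start. Ctss (chr3:95526774-95526801, plus strand) encodes the lysosomal protease cathepsin S, with the match at -2. Pld4 (chr12:112760654-112760681, plus strand) encodes a lysosomal exonuclease of the phospholipase D family, with the match at 9. Vav1 (chr17:57279079-57279106, plus strand) encodes a guanine nucleotide exchange factor of blood cells, with the match at -11. A match describes the letters in the window and not a bound site.

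The same windows were searched for 4 forms of the motif bound by the cell cycle factors of the E2F family, TTTCCCGC, TTTGGCGC, TTTCGCGC and TTTGCCGC. One of them was present for 704 of 27025 genes (2.61%), for 5 of 20 matched cell cycle genes (25%) and for 1 of the 16 matched enriched genes. None of the 20 cell cycle genes had the PU.1 letters. The windows of the cell cycle genes Mcm6, part of the replicative helicase, and Pclaf, a partner of the replication clamp PCNA, are shown.
Mcm6: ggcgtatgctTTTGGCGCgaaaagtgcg
Pclaf: cttggagcgcGCGGGAAAgagacccatt

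The Mcm6 window lies at chr1:128359798-128359825 on the minus strand, with the printed match at -110, and it holds 2 matches. The Pclaf window lies at chr9:65890308-65890335 on the plus strand, with the match at -5.

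Microglia numbered 183, 50 and 151 in the control libraries, 125, 30 and 95 in the cKO libraries and 87 in the DKO library. As a share of kept cells this was 2.37%, 1.06% and 1.59% in control, 2.01%, 1.61% and 1.48% in cKO, and 1.26% in DKO. The 95% exact binomial intervals, which cover counting error only, ran from 0.785% to 1.39% for control 2 and from 2.04% to 2.74% for control 1, so libraries of 1 genotype differed beyond counting error. The mean was 1.67 ± 0.66% in control and 1.70 ± 0.28% in cKO (SD, n = 3 each), and the groups overlapped. The difference of 0.027 points gave p = 0.9 in an exact two-sided permutation test over libraries, whose smallest possible p with 3 against 3 is 0.1. In dissociated tissue, fewer microglia and a lower yield of microglia from the digestion cannot be told apart.

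**Figure D1:**
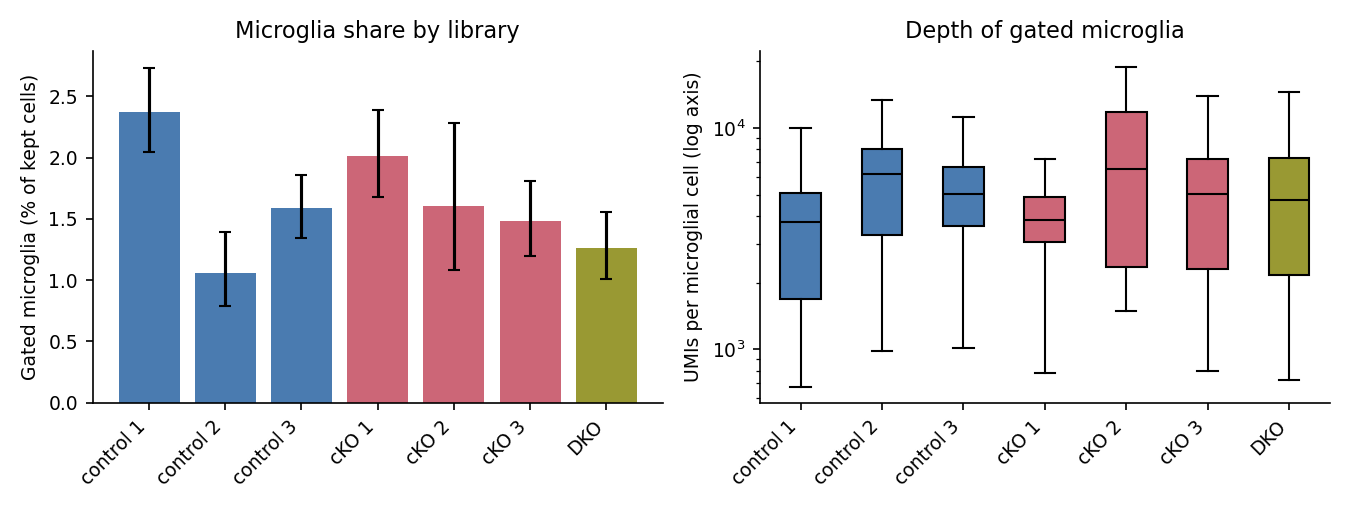
Share of kept cells that passed the microglia gate in each library, with 95% exact binomial intervals (left), and UMIs per microglial cell on a log axis (right). Control 1 was highest at 2.37% and control 2 lowest at 1.06%, with the 3 cKO libraries between them.

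The libraries differed in ways that touch the values below. Total UMIs per library ran from 45758003 to 141353017, kept cells from 1868 to 9502, and the median UMIs of a microglial cell from 3766 to 6556. Between 7 and 235 barcodes were shared by a pair of libraries, and 0 of them were gated as microglia in both libraries of the pair. Pairs within control 1, control 2, cKO 1 and cKO 2, or within control 3, cKO 3 and DKO, shared 103 to 235. Pairs across these sets shared 7 to 42, and the sets also differ in Cell Ranger version (6.0.1 and 6.1.1). No microglial cell with Xist and without Y-linked UMIs was found in control 1, cKO 2 or DKO, whereas such cells made up 57.9% to 78.6% of the microglia with UMIs of only one of the 2 classes in the other libraries. The study's methods state that males and females were combined in each pool. The microglia of control 1, cKO 2 and DKO do not show this. Prm1, whose polyadenylation region the Cre transgene carries, was at 38.6, 72.7 and 110 CPM (UMIs per library scaled to the same total) in the other cells of the cKO libraries and 45.8 in DKO, against at most 0.096 in control. Microglia held 10, 0 and 12 Prm1 UMIs in cKO and 3 in DKO. Prdm16 had 0 to 3 UMIs over all microglia of any library, so it cannot check the deletion in these cells.

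Few cells lay at the edge of the gate's receptor sum, but many cells above it had Mog UMIs. Of 1070 kept cells with 4 or more UMIs over the 4 receptor genes, 349 were not taken. Of the 1070, 268 (25%) had Mog UMIs, 61 had Cldn5, 37 had more than 1 Dcx UMI and 24 had no C1qa, and a cell can count in several of these. Those with Mog UMIs were 69 of 265, 20 of 78 and 67 of 243 in control. They were 17 of 154, 9 of 41 and 51 of 157 in cKO and 35 of 132 in DKO. At the threshold itself, 12 gated cells had exactly 4 UMIs of the receptor genes and 23 cells that met every other condition had 3. Scrublet marked 13 of the 721 cells as doublets, against 1043 (2.41%) of all kept cells.

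On CPM of each library's summed microglial UMIs (raw totals), Cx3cr1, the fractalkine receptor, lay at 4477, 4258 and 4998 in control, 4875, 4842 and 4523 in cKO and 3751 in DKO. Csf1r, the receptor that keeps microglia alive, lay at 3257, 3492 and 2630 in control, 2385, 2922 and 2658 in cKO and 2638 in DKO. P2ry12 ranged from 2105 to 3288 CPM, Tmem119 from 926 to 1328 CPM, and C1qa from 6136 to 7823 CPM. For each of these genes the ranges of control and cKO overlapped.

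Genes that the gate did not use separated the same cells from the rest. The 20 most enriched of them, by the ratio of CPM in microglia to CPM in all other kept cells, had ratios from 194 to 212, as large as the ratio of C1qa itself (201). The other kept cells include the 349 cells that passed the receptor sum but not the gate. The 20 genes were Cd33, Ccl3, Blnk, P2ry13, P2ry6, Susd3, Fcgr1, Cd86, Mpeg1, Clec4a2, C1qc, Pld4, Itgam, Siglech, Gm2629, Gpr34, Ctss, Vav1, C1qb and Trem2. C1qc lay at 4541 CPM in microglia and 22.4 in other cells. Trem2, the lipid-sensing receptor, lay at 1735 CPM against 8.93. Ccl3, a chemokine that draws monocytes, lay at 932 CPM against 4.41.

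The most abundant transcript was Cst3, the protease inhibitor cystatin C, at 58370 CPM. After each cell was thinned to 2000 UMIs, Sall1, the transcription factor that holds microglial identity, was seen in 25% to 50% of microglia of a library and in 0.60% to 3.38% of endothelial cells, which were gated separately and should lack it.

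**Figure D2:**
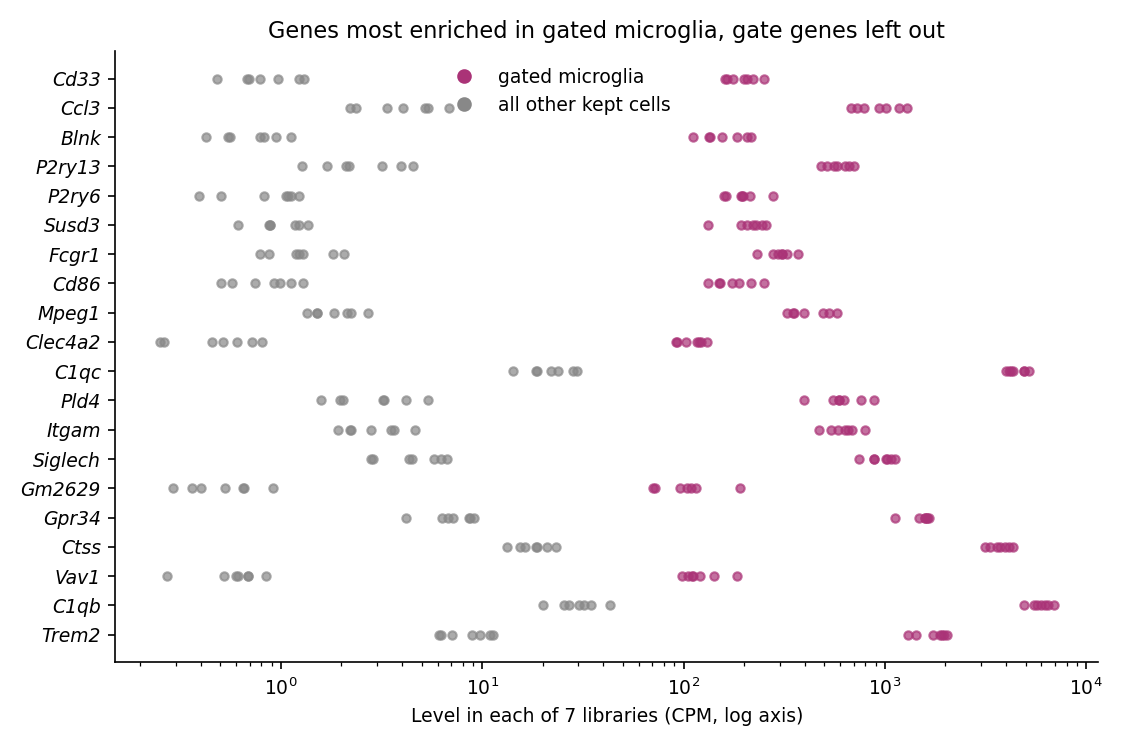
CPM on a log axis of the 20 genes most enriched in microglia and not used by the gate, in microglia (one point per library) and in all other kept cells of the same libraries. Every gene lies near 200 times higher in microglia, and C1qc is at 4541 against 22.4 CPM.

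The Prdm16 cKO was compared with control on summed microglial counts of the 7 libraries by edgeR's quasi-likelihood test, with p-values adjusted by Benjamini-Hochberg over 8778 genes. One gene rose in cKO, Pclaf, and none fell. That is 1 of 8778 genes, a percent called of 0.0114. At an unadjusted p under 0.05 there were 369 genes (4.2%), of which 182 (2.07%) were higher and 187 (2.13%) were lower in cKO. The 3 control libraries did not overlap the 3 cKO libraries for 876 genes (9.98%), 414 (4.72%) higher and 462 (5.26%) lower in cKO. The median log2 fold change over all genes was -0.01.

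Pclaf (ENSMUSG00000040204, chr9:65890237-65903266, plus strand, protein coding) lay at 9.69, 6.29 and 6.33 CPM in control, 75.0, 57.6 and 64.8 in cKO and 148 in DKO, on the scale of the edgeR fit (CPM over TMM-normalised library sizes). Every cKO library was above every control library, with a log2 fold change of 3.09 (SE 0.36, edgeR adjusted p = 0.000183). The microglial UMIs behind these levels were 7, 2 and 5 in control, 39, 12 and 34 in cKO and 71 in DKO.

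The rise rested on a few cells. One cell held 26 of the 39 Pclaf UMIs of cKO 1, 10 of the 12 of cKO 2 and 30 of the 34 of cKO 3, and in DKO one cell held 61 of 71. In control no cell held more than 2. Cells with any Pclaf UMI numbered 7, 2 and 4 in control, 5, 3 and 3 in cKO and 10 in DKO. Without the richest cell of each library, Pclaf was at 8.65, 3.35 and 3.62 CPM (of raw totals) in control, 24.9, 9.62 and 7.27 in cKO and 23.2 in DKO, so the groups overlapped.

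In neural and homeostatic genes, the richest cells of cKO 1, cKO 3 and DKO differed more from other microglia than that of cKO 2. Those of cKO 1, cKO 3 and DKO held 53, 113 and 103 UMIs of the neuroblast and transit amplifying progenitor (TAP) genes, while that of cKO 2 held 1. In all counts of these UMIs in single cells, Mki67 and Top2a, which the TAP list shares with the list of the dividing state, were left out, and they are called neural UMIs. UMIs of the 22 homeostatic microglia genes were 28.6, 673 and 231 per 10000 UMIs in the richest cells of cKO 1, cKO 2 and cKO 3 and 110 in that of DKO, against library medians of 998, 869, 815 and 602. The 4 receptor genes of the gate summed to 9, 174, 143 and 78 UMIs in the same cells. Scrublet marked none of them as a doublet. The homeostatic genes, which the gate did not use, and the neural UMIs go against the microglia label for the richest cells of cKO 1, cKO 3 and DKO. The receptor UMIs, which the gate used, were above the median of the non-dividing microglia (54) in the richest cells of cKO 2, cKO 3 and DKO. When all cells with 3 or more neural UMIs were left out, 0 genes were called and 283 had an unadjusted p under 0.05, with Pclaf at a log2 fold change of 1.78 (edgeR adjusted p = 0.999). When the dividing cells were left out, 0 genes were called by edgeR, 264 had an unadjusted p under 0.05, and Pclaf had too few counts to be tested. No other tool was run in these 2 settings.

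**Figure D3:**
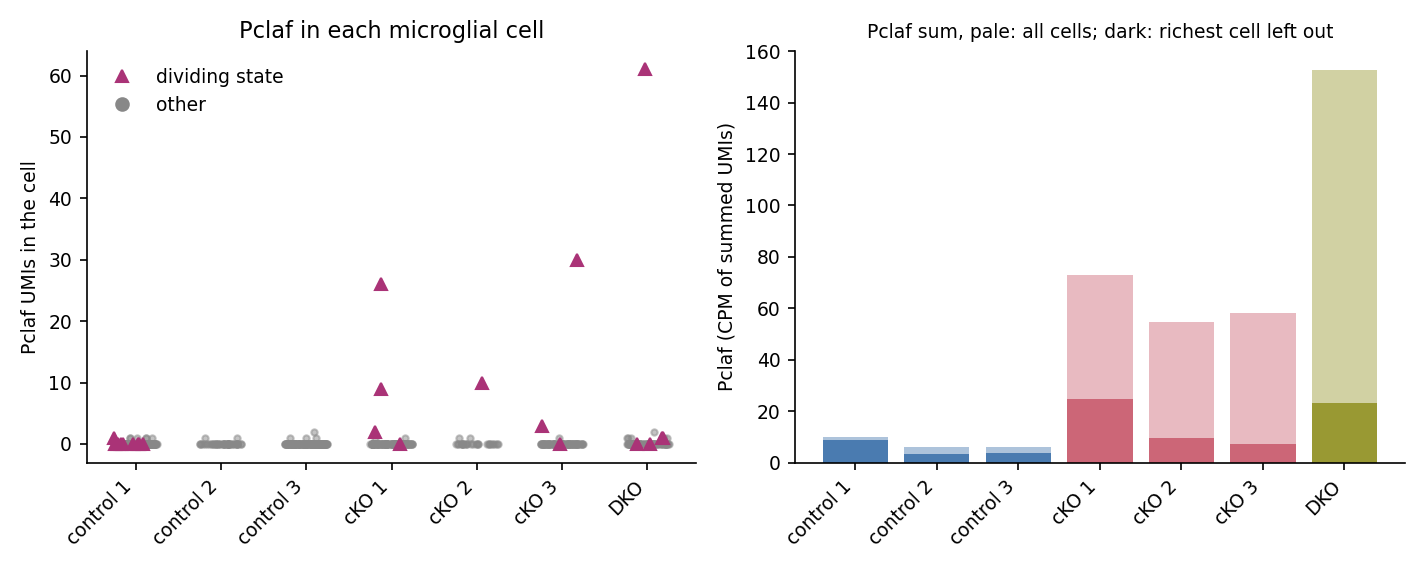
Pclaf UMIs in single microglia by library, with triangles for cells in the dividing state (left), and Pclaf CPM of each library with all cells and without the richest cell (right). A single cell holds 26, 10 and 30 UMIs in the 3 cKO libraries and 61 in DKO, and no control cell holds more than 2.

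Among genes of the cell cycle, 21 of 23 tested members had a higher level in cKO and 2 a lower one, with a median log2 fold change of 1.21 against -0.01 over all genes. The median was 2.12 without control 1 and 0.68 without cKO 3. Pclaf was called, 13 members had an unadjusted p under 0.05 with cKO higher, against 2.07% of all genes, and 6 had cKO libraries all above control, against 4.72% of all genes. Summed over the list, the level was 1543, 1101 and 983 CPM in control, 2085, 1463 and 2364 in cKO and 2629 in DKO, so cKO 2 lay below control 1. Mcm6 was at 12.5, 18.9 and 5.06 CPM in control, 57.7, 48.0 and 22.9 in cKO and 43.8 in DKO, with a log2 fold change of 1.95 (SE 0.48, edgeR adjusted p = 0.697). Top2a, the topoisomerase of dividing cells, was at 84.4, 6.29 and 15.2 CPM in control, 90.4, 57.6 and 158 in cKO and 129 in DKO, so control 1 lay within the cKO range. Top2a and Mki67 were not called in this fit. Both were called with an equal number of cells per library (edgeR adjusted p = 0.00663 each) and without control 1 (0.00625 and 0.0146). The first setting was 1 random draw of 30 cells per library, which is every microglial cell of cKO 2 and a part of the 183 of control 1. Without thinning, dividing cells numbered 9, 0 and 0 in control, so the second setting took away all those of control. Neither setting is a further test of these 2 genes. Without the dividing cells only 7 of the list's genes had enough counts to be tested, and their median was 0.00. Without the cells with 3 or more neural UMIs 14 were tested, and their median was 0.36.

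The lists that mark neural progenitors and their progeny were measured in the same cells. The TAP list, which holds Egfr, Mki67, Top2a and Dlx2 among its 5 genes, summed to 211, 31.4 and 51.4 CPM in control, 187, 101 and 326 in cKO and 312 in DKO. Mki67 and Top2a, which the cell cycle list also holds, made up most of this sum in control 1, cKO and DKO. Of raw totals, Mki67 was at 99.0, 0 and 5.98 CPM in control, 33.6, 36.6 and 65.1 in cKO and 94.5 in DKO. Top2a was at 87.5, 6.28 and 14.3 CPM in control, 87.7, 54.9 and 142 in cKO and 133 in DKO. All 5 members were higher in cKO, 2 at an unadjusted p under 0.05 (2.07% of all genes) and none called, with a median of 1.38 that was 2.45 without control 1 and 0.83 without cKO 3. The neuroblast list summed to 181, 138 and 149 CPM in control, 198, 64.0 and 243 in cKO and 421 in DKO, with 4 of 7 tested members higher, a median of 0.62, and 2 (Stmn2 and Dlx6os1) at an unadjusted p under 0.05 in the lower direction (2.13% of all genes). The median was -0.42 without cKO 3, and the sum was lowest of the 7 libraries in cKO 2. Its most abundant members Sox11, Dlx1, Stmn2 and Tubb3 lay at 0.62, 1.51, -1.53 and -0.41. Neither list had a member at 0 in all libraries. Single cells held many of the neural UMIs, which leave out Mki67 and Top2a. The cells with most held 53 and 48 in cKO 1, 113 in cKO 3, and 103 and 51 in DKO. No control cell held more than 28.

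No gene of the resting microglial programme passed the test. Of 22 homeostatic genes tested, 4 were higher and 18 lower in cKO, none at an unadjusted p under 0.05, with a median of -0.12. Cst3 was at 50967, 62364 and 66136 CPM in control, 62665, 78405 and 66028 in cKO and 43589 in DKO. Sparc, a matricellular protein, had a log2 fold change of -0.02 and Rhob, a small GTPase, one of -0.33. The members whose groups did not overlap were Olfml3, a secreted glycoprotein, at -0.28 (1182, 1144 and 1055 against 939, 917 and 933 CPM, 879 in DKO), and Nav3, a microtubule-binding protein, at -0.33, neither passing the test, against 5.26% of all genes not overlapping with cKO lower. The summed list was at 82307, 91031 and 85109 CPM in control, 87593, 98657 and 79623 in cKO and 67890 in DKO, the lowest of the 7 libraries.

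Of 20 transcription factors, 19 were tested, 4 higher and 15 lower, with a median of -0.12. Among the most abundant, Klf2, Mef2c and Maf had log2 fold changes of -0.30, 0.10 and -0.04. Tgif1, a TGF-beta corepressor, was the one factor at an unadjusted p under 0.05, at 72.0, 126 and 83.5 CPM in control, 55.8, 43.2 and 64.8 in cKO and 48.0 in DKO (log2 fold change -0.68, SE 0.28, edgeR adjusted p = 0.999). Of all genes, 2.13% had such a p with cKO lower, and 5.26% had groups that did not overlap with cKO lower, as Tgif1 did. In the list of CSF1 and TGF-beta signalling, 4 of 14 were higher and 10 lower, none at an unadjusted p under 0.05, with a median of -0.15. Its most abundant members Tgfbr1, Smad7, Skil and Tgfb1 lay at -0.07, 0.06, -0.34 and -0.21.

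Complement genes, which tag synapses and debris for uptake, had 5 of 10 tested members higher and 5 lower, with a median of 0.02. C1qb was at 6001, 6445 and 6290 CPM in control, 7104, 5135 and 6138 in cKO and 5569 in DKO, with cKO 2 lowest and cKO 1 highest. C1qc and Itgam had log2 fold changes of -0.07 and 0.07. In the list of phagocytic receptors and adaptors 6 of 16 were higher and 10 lower, with a median of -0.07. Its most abundant members Itgb5, Fcer1g, Fcgr3 and Cd68 lay between -0.23 and 0.14. With cKO lower, 2 members had an unadjusted p under 0.05 (2.13% of all genes) and 1 had groups that did not overlap (5.26%). Gas6, the bridging ligand that links dying cells to AXL and MERTK, was at 192, 245 and 149 CPM in control, 127, 106 and 120 in cKO and 154 in DKO (log2 fold change -0.70, SE 0.23, edgeR adjusted p = 0.999). Mertk itself lay at -0.09.

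Lysosomal genes had 8 of 27 members higher and 19 lower, none at an unadjusted p under 0.05, with a median of -0.11. Ctsd, the aspartyl protease cathepsin D, lay at -0.29, Ctss at 0.10 and Lgmn, the endopeptidase legumain, at -0.30. In the TREM2 and lipid list, 11 of 17 were higher and 6 lower, with a median of 0.09. Apoe, the lipid carrier, was at 8974, 8819 and 7073 CPM in control, 8944, 3309 and 9066 in cKO and 6772 in DKO, so cKO 2 lay below the other libraries. It was also the one library with no cell in the border macrophage state described below, and outside that state its Apoe level, 3150 CPM, lay within the range of the others (1514 to 4975). Trem2, Tyrobp and Npc2 had log2 fold changes of 0.02, 0.29 and 0.17.

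Of the genes that mark microglia of disease and developing white matter tracts, 8 of 14 tested were higher and 6 lower, with a median of 0.06, and 2 (Cd52 and Lgals3) had an unadjusted p under 0.05 with cKO higher, against 2.07% of all genes. The most abundant, Ctsl, Cd9, Cd63 and Ccl6, lay at 0.04, -0.02, 0.08 and -0.05. Spp1, which encodes osteopontin, was at 11.1, 9.43 and 1.27 CPM in control, 23.1, 14.4 and 979 in cKO and 0 in DKO, so its level in cKO 3 stood apart from that in every other library. That level came from 2 of the 95 cells of cKO 3, which held 514 Spp1 UMIs, 424 of them in 1 cell. Lgals3, which encodes galectin-3, was at 9.69, 6.29 and 3.8 CPM in control, 17.3, 86.5 and 131 in cKO and 10.4 in DKO (edgeR adjusted p = 0.999). Of the Lgals3 UMIs, 18 of 18 in cKO 2 and 50 of 69 in cKO 3 came from 1 cell each. Lgals3 was called by DESeq2 (adjusted p = 0.00565), and by edgeR with no filter on low counts (adjusted p = 1.23e-10) and without cKO 1 (adjusted p = 3.94e-05).

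Purinergic receptors and ion channels had 3 of 12 tested members higher and 9 lower, with a median of -0.11. Gpr34, P2ry13, Entpd1 and P2ry6 lay at -0.01, -0.04, 0.02 and -0.23. Actin and motility genes had 9 of 19 higher and 10 lower, with a median of -0.01, and Tmsb4x, Actb, Actg1 and Cfl1 lay between -0.09 and 0.36. Glycolytic genes had 6 of 15 higher and 9 lower, with a median of -0.16, and Gapdh, Hk2, Aldoa and Pkm lay between 0.00 and 0.19. The lowest glycolytic member lay at -1.28. In the lower direction 1 had an unadjusted p under 0.05 (2.13% of all genes) and 1 had groups that did not overlap (5.26%). Trophic factors had 4 of 15 higher and 11 lower, with a median of -0.19, and Psap, Grn, Tgfb1 and Pdgfb lay between -0.21 and 0.01. All tested trophic members ranged from -2.48 to 5.69, and 1 had an unadjusted p under 0.05 with cKO lower (2.13% of all genes).

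Chemokines and cytokines, which microglia release when activated, had 5 of 16 tested members higher and 11 lower in cKO, with a median of -0.12. Ccl4 was at 1243, 2676 and 1724 CPM in control, 1526, 1403 and 2217 in cKO and 1518 in DKO. Ccl3 was at 905, 1289 and 835 CPM in control, 699, 764 and 1312 in cKO and 985 in DKO, and Ccl2 and Ccl6 had log2 fold changes of 0.56 and -0.05. Il1a was at 216, 267 and 225 CPM in control, 214, 14.4 and 137 in cKO and 207 in DKO, so cKO 2 stood apart from the other libraries. Ccl9 had cKO above control in every library (184, 148 and 118 against 219, 207 and 206 CPM, 127 in DKO), as did 4.72% of all genes, with a log2 fold change of 0.49 that did not pass the test. Il1b, which encodes interleukin-1 beta, was at 92.7, 160 and 138 CPM in control, 69.3, 52.8 and 83.8 in cKO and 16.7 in DKO, with a log2 fold change of -0.85 (SE 0.27, edgeR adjusted p = 0.999). Its UMIs came from 8, 4 and 9 cells in control, 5, 2 and 8 in cKO and 2 in DKO, and 1 cell held 40 of the 51 of control 2. Without the richest cell of each library, Il1b was at 68.4, 35.9 and 80.0 CPM (of raw totals) in control and 28.3, 14.5 and 48.6 in cKO, so the groups overlapped.

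The NF-kB and toll-like receptor list had 7 of 21 tested members higher and 14 lower, with a median of -0.11. Its most abundant members Nfkbia, Zfp36, Nfkbiz and Cd14 lay at -0.28, 0.10, -0.36 and -0.15. The 3 members at an unadjusted p under 0.05, against 2.13% of all genes in this direction, were Tnfaip3, Tlr2 and Nfkb2. All 3 had control libraries above cKO, against 5.26% of all genes. Tnfaip3, which encodes the NF-kB inhibitor A20, was at 248, 327 and 216 CPM in control, 158, 125 and 158 in cKO and 265 in DKO (log2 fold change -0.81, SE 0.22, edgeR adjusted p = 0.999). The DKO library lay within the control range. Tlr2, which senses bacterial lipoproteins, was at 96.9, 97.5 and 84.8 CPM in control, 55.8, 52.8 and 78.1 in cKO and 58.4 in DKO.

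Immediate early genes, which respond within minutes to stimulation or tissue dissociation, had 3 of 22 members higher and 19 lower, with a median of -0.23, 2 (Ier2 and Hspa1b) at an unadjusted p under 0.05 in the lower direction, against 2.13% of all genes, and none called. Hspa1b, an inducible heat shock protein, was called without control 3 (edgeR adjusted p = 0.00708) and with no filter on low counts (edgeR adjusted p = 0.00226). Jun, Junb, Jund and Btg2 had log2 fold changes of -0.34, -0.32, -0.34 and -0.15. Fos was at 2264, 2682 and 2323 CPM in control, 2094, 2046 and 2091 in cKO and 2413 in DKO. The summed list was at 31976, 27243 and 22392 CPM in control, 26314, 19431 and 20215 in cKO and 20740 in DKO, and cKO 1 lay inside the control range. Its part in the levels of the cytokine and NF-kB genes was not tested.

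Interferon response genes had 6 of 12 tested members higher and 6 lower, with a median of -0.03, and Bst2, Ifitm3, Trim30a and Slfn2 lay at 0.09, -0.15, 0.43 and -0.58. MHC class I genes had 4 of 10 higher and 6 lower, with a median of -0.14, and 1 at an unadjusted p under 0.05 with cKO lower (2.13% of all genes). B2m, the invariant light chain, was at 1150, 1160 and 1280 CPM in control, 1418, 1720 and 1545 in cKO and 1179 in DKO (log2 fold change 0.38, SE 0.19, edgeR adjusted p = 0.999). Every cKO library was above control, as for 4.72% of all genes. The heavy chain H2-K1 went the other way, at 556, 560 and 377 CPM in control, 393, 360 and 322 in cKO and 255 in DKO, and H2-D1 and Psmb8 lay at -0.29 and 0.10. Of 7 MHC class II genes only H2-DMa, Cd74 and H2-DMb1 were tested, at 0.09, -0.25 and 0.52, with a median of 0.09.

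The genes at a mean log2 CPM of 6 or more whose libraries did not overlap numbered 285 of 2777, with 165 higher and 120 lower in cKO. That share is close to the 9.98% of all genes that did not overlap (4.72% higher and 5.26% lower in cKO). The count is therefore no result about these genes. None of them passed the adjusted test, and the 10 of each direction with the smallest unadjusted p are given as values, each with edgeR adjusted p = 0.999. In the higher direction they were Hmgb2, Prdx1, Ywhab, Wbp11, Cycs, Tubb5, Ranbp1, Nme2, Smarca5 and U2af1, with log2 fold changes from 0.58 to 0.78. Hmgb2, a chromatin protein abundant in dividing cells, was at 345, 340 and 306 CPM in control, 573, 351 and 756 in cKO and 597 in DKO. One cell held 203 of its 397 UMIs in cKO 3. Prdx1, a peroxide-removing enzyme, was at 242, 230 and 266 CPM in control, 319, 557 and 333 in cKO and 278 in DKO. Cycs, the electron carrier cytochrome c, was at 40.1, 59.7 and 69.6 CPM in control, 77.0, 120 and 101 in cKO and 91.8 in DKO.

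In the lower direction they were Tnfaip3, Cd83, Il1b, Cldn11, Gas6, Dnase2a, Safb, Adgre1, Taz and Arl4c, with log2 fold changes from -1.14 to -0.57. Cd83, an activation marker of antigen-presenting cells, was at 311, 258 and 272 CPM in control, 162, 62.4 and 183 in cKO and 213 in DKO, with UMIs in 56, 15 and 47 control cells, 29, 5 and 25 cKO cells and 24 DKO cells. Adgre1, which encodes the macrophage antigen F4/80, was at 191, 204 and 173 CPM in control, 140, 106 and 122 in cKO and 129 in DKO. Dnase2a, the lysosomal nuclease that digests engulfed DNA, was at 101, 107 and 83.5 CPM in control, 55.8, 38.4 and 66.7 in cKO and 102 in DKO. Cldn11, a tight junction protein of myelin, was at 126, 104 and 79.7 CPM in control, 38.5, 14.4 and 72.4 in cKO and 93.9 in DKO. In the other cells Cldn11 was at 1909, 1678 and 1277 CPM in control, 1989, 1484 and 1054 in cKO and 1235 in DKO. Its log2 fold change in endothelial cells was -0.99 (edgeR unadjusted p = 0.00622).

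Markers of other cell types were measured in the same cells. The oligodendrocyte list summed to 1851, 1839 and 1909 CPM in control, 967, 809 and 1616 in cKO and 1985 in DKO, against 21096 to 30249 in the other cells of control and cKO libraries. All 7 tested members were lower in cKO, 3 at an unadjusted p under 0.05 (2.13% of all genes) and none called, with a median of -0.67, and Mog was at 0 in all libraries because the gate requires it. Mbp, Cnp and Mobp had log2 fold changes of -0.37, -0.38 and -0.40. Astrocyte and neural stem cell genes had 4 of 9 higher and 5 lower, with a median of -0.37, and Cpe, Mt3, Slc1a2 and Slc1a3 lay at -0.37, 0.44, -0.57 and 0.02. The members at an unadjusted p under 0.05, against 2.07% of all genes higher and 2.13% lower, were Gfap, the astrocyte filament (19.4, 6.29 and 13.9 CPM in control, 63.5, 14.4 and 36.2 in cKO, 10.4 in DKO), and Thbs4, a secreted protein of V-SVZ astrocytes. Thbs4 had 10, 6 and 33 UMIs in control microglia, 0 in each cKO library and 1 in DKO (edgeR adjusted p = 0.114). In the other cells of the same libraries Thbs4 was at 73.9, 82.9 and 47.1 CPM in control, 56.3, 6.33 and 4.09 in cKO and 35.6 in DKO. Endothelial genes had 3 of 7 tested, all lower, at -0.58 for Pltp, -0.67 for Pecam1 and -0.70 for Itm2a, with Cldn5 at 0 by the gate and a median of -0.67.

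Ependymal genes had 4 of 4 tested members higher, none at an unadjusted p under 0.05, with a median of 0.27, and Rarres2, Tmem212, Ccdc153 and Dynlrb2 lay between 0.17 and 0.67. Neuronal genes had 3 of 7 higher and 4 lower, with a median of -0.04, and Pcp4, Meg3, Penk and Snap25 lay at -0.04, -1.50, -0.85 and 0.15. T cell genes were at most 13.7 CPM in sum, 6 of 9 were at 0 in all libraries and none was tested. Monocyte and neutrophil genes had 5 tested, 2 higher and 3 lower, with a median of -0.12, and 103 UMIs of the neutrophil gene S100a9 came from 1 cell of cKO 1, against 0 in every control library.

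Hemoglobin transcripts summed to 133, 342 and 371 CPM in control, 8888, 233 and 15173 in cKO and 1300 in DKO. All 4 genes had an unadjusted p under 0.05 with cKO higher, against 2.07% of all genes, with a median log2 fold change of 5.07, and none was called in the fit of 3 groups. Of the Hba-a2 UMIs, 1 cell held 296 of 337 in cKO 1 and 1 cell held 623 of 652 in cKO 3. The sex-linked genes had 1 of 5 higher and 4 lower, with a median of -0.55. Of the targeted genes and the Cre tag, Prm1 and Vcam1 were tested, with Vcam1 at 11.1, 15.7 and 41.8 CPM in control, 17.3, 0 and 24.8 in cKO and 75.2 in DKO. The floxed Vcam1 allele of the DKO is recombined in radial glia and their descendants, and the Vcam1 level of its microglia was the highest of the 7 libraries.

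Cells were next placed in states by short gene lists, a cell being in a state when the list's UMIs summed to 3 or more. Because depth sets this, each cell was thinned to 2000 UMIs, which kept 587 cells and left out 134 shallower ones. A state is a range of a count and not a separate cell type, and a cell can be in several. The genes that define a state, and other genes in its cells, are given as descriptions.

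The dividing state (Mki67, Top2a, Cdk1 and 10 other genes of mitosis) held 2.29%, 0% and 0% of thinned cells in control, 2.65%, 4.17% and 3.90% in cKO and 1.45% in DKO. The counts of 0 were of 44 and 129 cells, which allow shares of up to 6.82% and 2.33% by a limit of 3 counts, the limit used for every count of 0 here, and of up to 8.04% and 2.82% by the exact 95% binomial interval. The means were 0.76 ± 1.32% and 3.57 ± 0.81% (SD, n = 3 each), a difference of 2.81 points. All cKO libraries were above all control libraries, at p = 0.1 in the exact two-sided permutation test, the smallest p that 3 against 3 can give. The cells numbered 3, 0 and 0 in control and 3, 1 and 3 in cKO. Without thinning the shares were 4.92%, 0% and 0% against 3.20%, 3.33% and 3.16%, with 5.75% in DKO, so the groups overlapped (exact p = 0.4).

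Unthinned, 22 cells (3.05%) were dividing, 9, 0 and 0 in control, 4, 1 and 3 in cKO and 5 in DKO. Of these, 9 also held 3 or more neural UMIs, counted without Mki67 and Top2a, and 1 was a Scrublet doublet. They had a median of 18 UMIs over the receptor genes of the gate, against 54 in the other microglia, and 383 against 857 homeostatic UMIs per 10000. Other dividing cells had more receptor UMIs than that median. Control 1 held cells with 100 and 103 UMIs of the dividing list and 115 and 83 receptor UMIs, and cKO 1, cKO 2 and cKO 3 each held one with 70, 32 and 76 dividing UMIs and 112, 174 and 105 receptor UMIs. Each of these 5 cells had at most 1 neural UMI. Genes outside the list that were high in dividing cells, chosen after their values were seen, were Pbk, a mitotic kinase (443 against 2.60 CPM), Pclaf (750 against 7.51), the linker histone Hist1h1b (1448 against 14.7), the cyclin Ccnd2 (1703 against 65.2) and the methyltransferase Ezh2 (432 against 18.8). Pclaf had 144 of its 170 UMIs in these 22 cells, but the 9 of control 1 held 1 of them, and the richest cells of cKO 1, cKO 3 and DKO, with their 53, 113 and 103 neural UMIs, held 26, 30 and 61. Of the 278 Hist1h1b UMIs of the dividing cells, 1 cell each of cKO 1, cKO 3 and DKO held 37, 69 and 111. For Ezh2 such cells held 11, 21 and 21 of 83. Pbk and Ccnd2 were seen in 12 and 11 of the 22 cells.

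**Figure D4:**
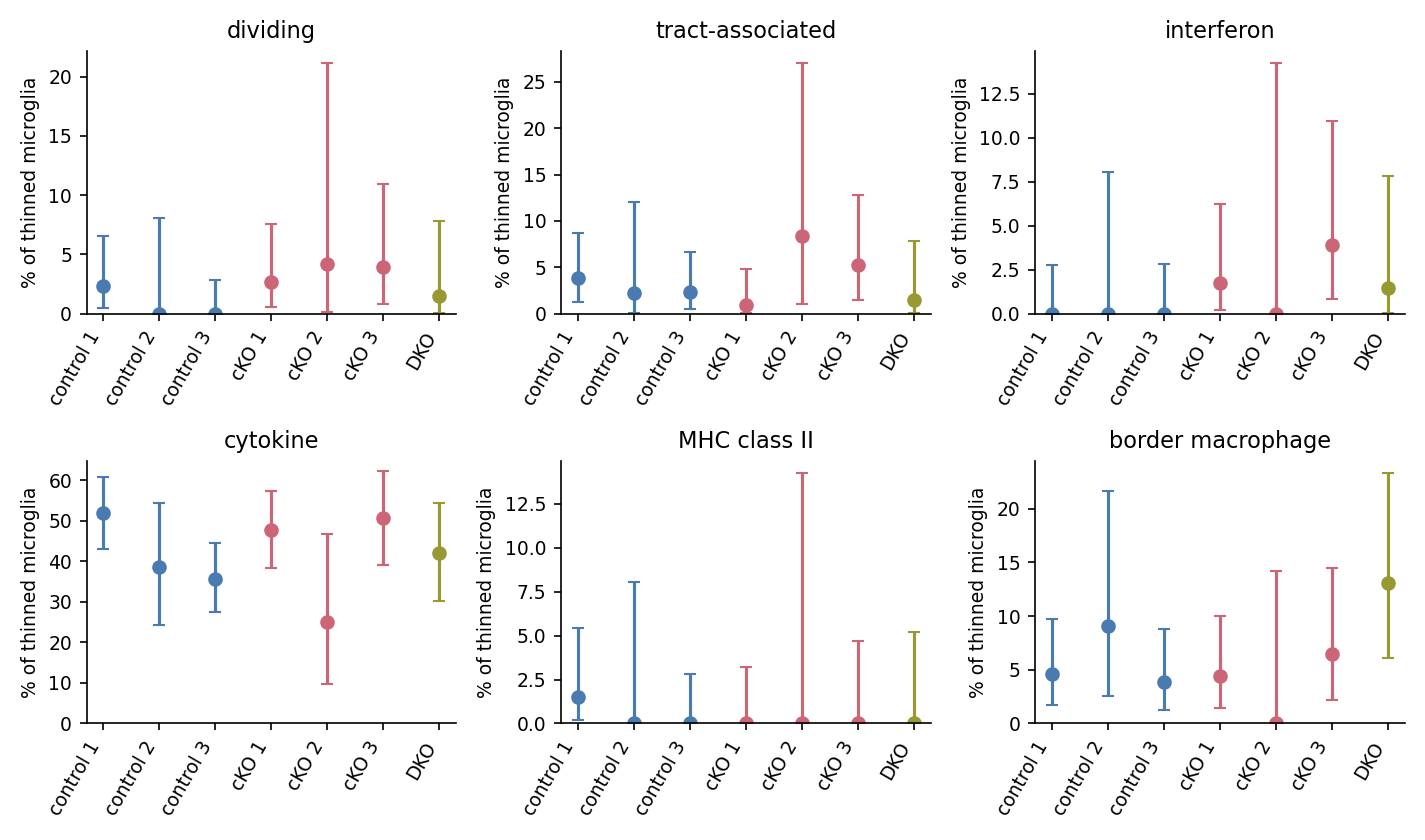
Percent of microglia thinned to 2000 UMIs in each of 6 states, by library, with 95% exact binomial intervals. The dividing share is 0 to 2.29% in control and 2.65% to 4.17% in cKO from 0 to 3 cells per library, and the cytokine share is 25% to 51.9%.

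The cytokine state (Ccl2, Ccl3, Ccl4, Cxcl2, Il1a, Il1b and Tnf) was the most frequent, with 51.9%, 38.6% and 35.7% of thinned cells in control, 47.8%, 25% and 50.6% in cKO and 42.0% in DKO. The means of 42.1 ± 8.65% and 41.1 ± 14.1% (SD, n = 3 each) gave an exact permutation p of 0.9. Unthinned, 365 cells (50.6%) were in the state. They carried more immediate early UMIs, 313 against 134 per 10000, and the gene with the highest ratio was Hbb-bs, a hemoglobin chain (3684 against 356 CPM), whose UMIs were seen in 55.1% of cells inside and 51.1% outside. Genes of NF-kB and the stress response were among the next. Atf3, a stress-induced transcription factor, was at 2014 CPM inside the state and 427 outside it. Cd83 was at 329 against 51.6 CPM, Nfkbiz at 572 against 89.6, Tnfaip3 at 301 against 65.3 and Junb at 3397 against 972. The cells inside were also deeper, with a median of 5456 against 3377 UMIs.

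The border macrophage state was defined by Mrc1, Pf4, Cd163, Lyve1, Ms4a7, F13a1 and Cbr2, genes of the macrophages of the meninges, choroid plexus and perivascular space. It held 42 of the 721 gated cells (5.83%) without thinning. They had a median of 11 UMIs against 56 over the receptor genes, which the gate used, and 211 against 880 homeostatic UMIs per 10000. Sall1 was at 0 in the border cells of cKO 1, cKO 3, DKO and control 3. The homeostatic genes and Sall1, which the gate did not use, go against the microglia label for the border cells of these 4 libraries.

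The other genes leading in the border macrophage state were Ccl8, Clec10a, Wfdc17, Cybb, Ccl7, Ccl24 and Dab2. Clec10a, a lectin of tissue macrophages, had 116 UMIs inside the state and 0 outside. Apoe was at 45609 to 105808 CPM in the state, across the libraries that had such cells, against 1514 to 4975 outside. The thinned share was 4.58%, 9.09% and 3.88% in control, 4.42%, 0% and 6.49% in cKO and 13% in DKO, with the 24 cells of cKO 2 allowing up to 12.5%. The means were 5.85 ± 2.83% and 3.64 ± 3.32% (SD, n = 3 each, exact permutation p = 0.5), and the DKO library was the highest. Its border macrophage list, summed over all gated cells, was likewise highest at 1727 CPM against 587, 853 and 592 in control and 590, 119 and 836 in cKO. In the cKO contrast 6 of 11 tested members of that list were higher and 5 lower, with a median of 0.07 and a range from -1.84 to 1.33. With cKO lower, 1 member had an unadjusted p under 0.05 (2.13% of all genes) and 2 had groups that did not overlap (5.26%). Without the border cells, edgeR called Pclaf and Dut.

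The tract-associated state (Spp1, Gpnmb, Lpl, Itgax, Cst7 and Igf1) held 3.82%, 2.27% and 2.33% of thinned cells in control, 0.885%, 8.33% and 5.19% in cKO and 1.45% in DKO, with an exact permutation p of 0.6. Unthinned it held 62 cells, which were led by the lysosomal tetraspanin Cd63 (1052 against 313 CPM), the lysozyme Lyz2, the cell cycle inhibitor Cdkn1a and Apoe (16559 against 6131 CPM). The share was 30% in cKO 2, from 9 of 30 cells, and 4% to 10.5% in the other control and cKO libraries. Of these 62 cells 46 were also in the cytokine state.

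The interferon state (Ifit1, Isg15, Irf7 and 7 others) held no thinned cell of the 131, 44 and 129 in control, which allows up to 2.29%, 6.82% and 2.33%, and 1.77%, 0% and 3.90% in cKO and 1.45% in DKO (exact permutation p = 0.4). Unthinned, the shares were 0.55%, 6% and 2.65% in control, 3.20%, 3.33% and 5.26% in cKO and 9.20% in DKO, so control 2 lay above every cKO library (exact permutation p = 0.8). Of the 26 cells unthinned, 16 were also in the border macrophage state, and Lyve1, Clec10a and F13a1 were among their leading genes. The MHC class II state (Cd74, H2-Aa, H2-Ab1 and H2-Eb1) held 1.53%, 0% and 0% in control and no thinned cell of the other libraries (exact permutation p = 1.0). Unthinned it held 44 cells, of which 37 were in the cytokine state, led by Il1a, Il1b, Gadd45b, Cd52 and Cd83.

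Across single cells of 1 library, the genes that varied most were read as the variance of UMIs over their mean in thinned cells, which had a median of 0.996 over 5662 genes. Each gene's value is the median over the libraries with a UMI of it. Apoe was highest at 95.8, followed by Cst3 (38.8), Malat1 (25.4), S100a9 (19.5), H3f3b (14.6), Ccl4 (12.9), Hba-a2 (12.8), Lyz2 (10.7), Pf4 (10.6) and Ccl3 (10.1). The next were Tmsb4x, Junb, Cxcl2, Fos and Nfkbia, between 6.58 and 8.22. The list thus held border macrophage genes (Pf4), chemokines and immediate early genes beside transcripts that single cells carried, such as Hba-a2 (from 0.906 to 101 between libraries) and S100a9, which was seen in 2 libraries, at 38 in cKO 1 and 1 in cKO 2.

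The cKO effect in microglia was set against that in endothelial cells of the same libraries, a cell type that also lies outside the radial glial lineage, by an interaction term in edgeR with the library as a block. Of 12478 genes tested, 6 differed (0.0481%) and 476 (3.81%) had an unadjusted p under 0.05. The 6 were Pclaf, Dut, Hist1h1b, Hist1h2ae, Hist1h2ab and Lgals3, each higher in cKO in microglia and lower in cKO in endothelial cells as fitted. Dut encodes the dUTPase that keeps uracil out of DNA, and the Hist1 genes encode histones made while DNA is copied. For Pclaf the endothelial levels were 23.2, 12.4 and 19.8 CPM in control and 11.0, 7.61 and 3.90 in cKO, with the difference of the log2 fold changes at 4.56 (SE 0.50, edgeR adjusted p = 2.45e-07). For Dut the difference was 2.15 (SE 0.38, edgeR adjusted p = 0.00379), from 1.72 in microglia and -0.46 in endothelial cells.

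In microglia 19 of the 31 Dut UMIs of cKO 1, 7 of the 11 of cKO 2 and 15 of the 30 of cKO 3 came from one cell each. In cKO 3 the richest cell for each gene held 66 of 75 Hist1h2ab UMIs and 88 of 119 Hist1h2ae UMIs. Cells with 3 or more neural UMIs held 20 of the 31 Dut UMIs and 38 of the 58 Hist1h1b UMIs of cKO 1. In cKO 3 they held 16 of 30 Dut, 71 of 98 Hist1h1b, 93 of 119 Hist1h2ae and 67 of 75 Hist1h2ab UMIs, in cKO 2 they held none of these, and of Lgals3 they held 0, 0 and 1 UMIs in the 3 cKO libraries. Without control 3 only Pclaf differed, and without control 1 there were 19 genes. Of the genes that were not called, Sox11 and Tubb5 had the smallest p in the interaction among those of mean log2 CPM at least 5, with differences of 1.58 and 0.76 (edgeR adjusted p = 0.102 and 0.342). Sox11 was called with no filter on low counts (edgeR adjusted p = 0.00129) and without control 2 (0.00239).

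The DKO library has no replicate, so its values carry no test. Its cells had next to no Xist, like those of control 1 and cKO 2, and it has the Cell Ranger version of control 3 and cKO 3. No other library matches it in both. In microglia of DKO, Pclaf, the summed cell cycle, neuroblast, interferon and border macrophage lists and Vcam1 were the highest of the 7 libraries, and the summed homeostatic list and Il1b were the lowest. One DKO cell held 61 of the 71 Pclaf UMIs, 694 UMIs of the cell cycle list and 103 neural UMIs, and another held 51 neural UMIs. Without the richest cell of each library, Pclaf was lower in DKO (23.2 CPM) than in cKO 1 (24.9). The ranks of the summed lists without such cells were not tested.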

How the data were processed

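Single-cell libraries of the V-SVZ were made with 10x Genomics Chromium 3′ v3.1 chemistry. The authors deposited filtered gene-by-cell counts of UMIs, without normalization, made with Cell Ranger on mm10 with replicates kept apart. The labels give Cell Ranger 6.1.1, while the file headers give 6.0.1 for control 1 and 2 and cKO 1 and 2 and 6.1.1 for the others. The counts were used as deposited. Cells with 500 to 7000 genes and at most 10% mitochondrial UMIs were kept and gated as described, with doublets marked by Scrublet (expected rate 0.08, scanpy 1.11.5, its automatic threshold replaced in control 1) and not removed.

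UMIs were summed per library over gated cells and fitted with edgeR 4.0.16 in R 4.3.3 (filterByExpr, TMM, robust quasi-likelihood, 3 groups over 7 libraries), adjusted p under 0.05 being called. Libraries are replicates and each is a pool of mice. DESeq2 1.42.0 was an alternative. States were called at 3 UMIs in cells thinned to 2000 and compared by exact permutation over libraries (scipy 1.17.1). Scripts were tested on simulated data. Named genes were every called gene, the 10 in each direction with the smallest unadjusted p among non-overlapping genes of mean log2 CPM at least 6, the most abundant 4 of each of 32 lists, the 20 most enriched and 15 most overdispersed genes, the called interaction genes and the 5 of smallest interaction p at mean log2 CPM of at least 5. Some genes taken by this rule are not reported here. Genes named for states and those whose UMIs are given by cell were chosen after their values were seen, as were the members given because their libraries did not overlap. The gate, members and lists were chosen with earlier results of these data known, so list counts support nothing independently. Counting intervals and limits cover counting error only. Gene positions are from GENCODE vM21 on GRCm38, and promoter windows from RefSeq on GRCm38.p6.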

Additional observations from a re-analysis of the deposited data

Results flagged for a closer look

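The 6 genes below had a cKO effect (log2 fold change, cKO against control) that differed between microglia and endothelial cells of the same libraries in edgeR's test of the interaction. The differences, microglia minus endothelial cells, were 4.56 for Pclaf, 2.94 for Hist1h2ae, 3.17 for Hist1h1b, 2.15 for Dut, 5.13 for Lgals3 and 4.47 for Hist1h2ab. Their edgeR adjusted p-values were 2.45e-07, 2.93e-05, 0.000691, 0.00379, 0.0157 and 0.0431 in the same order. All but Lgals3 are genes of DNA replication or its histones, and Lgals3 encodes galectin-3. The fitted log2 fold changes in microglia were 3.09, 2.48, 2.29, 1.72, 3.51 and 3.24, and those in endothelial cells -1.38, -0.52, -1.02, -0.46, -1.68 and -1.40, in the same order. With 1 library left out, the difference for Hist1h2ab was 1.63 without cKO 3 and that for Hist1h1b 2.02 without control 3. Hist1h1b in cKO 2 (9.43 CPM) lay below control 1 and control 3 (24.2 and 31.9 CPM).

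In cKO 3, 88 of 119 Hist1h2ae UMIs, 69 of 98 Hist1h1b UMIs, 66 of 75 Hist1h2ab UMIs and 50 of 69 Lgals3 UMIs of all microglia came from a single cell of the library for each gene. Cells with 3 or more neuroblast or TAP UMIs (Mki67 and Top2a not counted) held 30 of 34 Pclaf, 16 of 30 Dut, 93 of 119 Hist1h2ae, 71 of 98 Hist1h1b and 67 of 75 Hist1h2ab UMIs there, and 1 of 69 Lgals3 UMIs. Their part in the difference from endothelial cells was not tested. The UMIs of Hist1h2ab in the other cKO libraries were 2 and 1. Among the 6 genes, Lgals3 was the one whose level in DKO microglia, 10.6 CPM, was close to that of control (9.95, 6.11 and 3.82 CPM).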

How the results depend on the processing

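The microglial cKO contrast called 1 gene, Pclaf. DESeq2 called 2, no filter on low counts 21, at most 5% mitochondrial UMIs 2, removal of doublets 2, removal of border macrophage cells 2, an equal number of cells per library 3, and a Cell Ranger version block 3. Alternatives chosen after seeing the data gave 0 without dividing cells and 0 without cells with 3 or more neuroblast or TAP UMIs (Mki67 and Top2a not counted). The dividing cells held 144 of all 170 Pclaf UMIs. Cells with neuroblast or TAP UMIs held 28 of 39 in cKO 1, 0 of 12 in cKO 2 and 30 of 34 in cKO 3. The part of these cells in the call was not tested. The other added settings (no hemoglobin genes, a block for Xist, no limit on Mog, at least 2000 UMIs) each gave 1. Leaving out 1 library gave 1 to 6 calls, 6 without control 1, 4 without cKO 2, and 2 without control 3 or cKO 1, with Pclaf at 2.93 to 3.37.

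Same-numbered control and cKO libraries correlated at 0.25, -0.11 and 0.35 in their deviations from group means (2782 genes), so not every pair was over 0.1 and the numbers were not taken to pair the libraries. Control 2 correlated best with cKO 3 (0.15), and both libraries numbered 3 have the 6.1.1 header. A fit with the replicate block called 25, among them Dut (edgeR adjusted p = 0.00858), Thbs4 (0.00689), Mcm6 (0.0202), Cd83 (0.0257) and Hba-a2 (0.00035), which the fit without it did not call.

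The interaction with endothelial cells called 6 genes, 19 without a filter, and 1 to 19 with 1 library left out (19 without control 1, 12 without cKO 2, 3 without cKO 3 and 1 without control 3).

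In cKO minus control percentage points, the cytokine share (-0.922) was 0.163 without thinning and -5.67 to 7.15 with 1 library left out. The MHC class II share (-0.509) was 0.774 without thinning and -0.763 to 0 with 1 left out. The microglia share (0.027) ranged from -0.281 to 0.376, the dividing share from 2.43 to 3.57, the tract-associated share from 0.235 to 3.96 (6.13 without thinning against 2.00 with it), the interferon share from 0.885 to 2.83 (0.867 without thinning against 1.89 with it) and the border macrophage share from -3.64 to -0.390. None of these states passed the test in any setting, and 3 against 3 cannot. With 24 to 131 thinned cells per library, the shares of states other than the cytokine state rest on 0 to 6 cells in control and cKO.

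With 1 library left out, the median log2 fold change changed sign for several lists, among them neuroblasts (-0.42 to 0.87), astrocytes and NSCs (-0.69 to 0.13), border-associated macrophages (-0.80 to 0.44), ependymal cells (-0.46 to 1.03) and neurons (-1.50 to 1.19).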
